A study of Caenorhabditis elegans with 19 samples.

Results

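The clec genes of Caenorhabditis elegans encode proteins with C-type lectin-like domains. They were taken as every gene whose WormBase name is clec followed by a number in the Ensembl release 115 annotation of the WBcel235 genome. The expression tables held 237 of them among 21975 genes. The annotation has 240 entries with such a name, and the other 3 were not analysed here.

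A C-type lectin-like domain is a compact fold held together by disulfide bonds, and in some members of the class it binds sugars with the help of calcium. Most of the worm's clec proteins are secreted or sit in membranes. Many of the genes are expressed in the intestine, the organ that meets ingested bacteria, and subsets of them are induced by particular pathogens, partly under the control of the p38 MAP kinase PMK-1. The worm has no circulating immune cells, and secreted effectors of this kind belong to its gut defences.

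The samples were whole populations, and RNA was measured as FPKM (fragments scaled to transcript length and to sequencing depth). The strain EKM198, called xol-1 sex-1 here, carries xol-1 (ne4472) together with sex-1 (gk829). It was sampled as early embryos (n = 3), as L1 larvae fed for 3 h (n = 4) and as L3 larvae fed for 24 h (n = 4). The strain WM458, called xol-1, carries xol-1 (ne4472) alone and was sampled at L3 (n = 4). The wild-type strain N2 Bristol, called WT, was sampled at L3 (n = 4). The gene xol-1 acts as a switch in sex determination, and sex-1 encodes a nuclear hormone receptor that represses it as one of the X-linked signals of chromosome dose. The xol-1 mutation is therefore common to both mutant groups, and all larvae were raised on the bacterial strain NA22. Each genotype is 1 strain, and nothing in the labels says whether the replicates came from separate cultures, so p-values measure the spread between these samples, which may be technical. The early embryo and L1 samples used here are all xol-1 sex-1, so genotypes were compared at L3 only. The tables hold 13 further columns that match none of the samples used here, and they were not analysed.

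A level of 1 FPKM on a transcript of 1 kb corresponded to 27.4 to 34.9 fragments in the embryo libraries, 14.7 to 20 at L1 and 20.7 to 34.9 at L3. Replicates of a group correlated across all genes with r of 0.986 to 0.996 on the log2(FPKM + 1) scale. sex-1 RNA was at 3.76 ± 0.408 FPKM in xol-1 sex-1, 5.01 ± 0.863 in xol-1 and 4.68 ± 0.717 in WT at L3 (SD, n = 4 each). Its log2 fold change in xol-1 sex-1 relative to xol-1 was -0.33 (SE 0.13, adjusted p = 0.0504), so this level does not check the genotype label. xol-1 RNA was listed at 0 in 3 of 4 xol-1 sex-1, 4 of 4 xol-1 and 3 of 4 WT libraries at L3. Summed levels of 5 embryo markers stood at 25.1 to 36.4 FPKM in early embryos, and at 0.183 to 0.731 FPKM at L1 and 0.389 to 0.796 FPKM at L3 of xol-1 sex-1. Some broadly used genes are listed at 0, tir-1 and nhr-49 in every group and mpk-1 in both mutants, so a 0 is given here as a listed value. The zeros of mpk-1 are not read as an effect of genotype.

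The family was spread unevenly over the genome. Chromosome V held 84 of the 237 genes (35.4%, where it holds 24.9% of protein-coding genes), chromosome IV 53, chromosome II 48, chromosome I 35 and chromosome III 14. The X chromosome held 3 (1.27%, where it holds 13.7% of protein-coding genes). Neighbours were common. With adjacent genes defined as clec genes that follow each other in the annotation within 10 kb, 123 of the 237 (51.9%) lay in 40 runs, the longest of 13 genes on chromosome V between 16839121 and 16869840. The exons of 40 clec genes overlap those of another gene, and the values of such genes are uncertain where reads could be assigned to either.

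Most clec genes were weakly expressed in these animals. The median clec gene stood at 0.217 FPKM in early embryos, 0.36 at L1 and 0.627 at L3 of xol-1 sex-1, 0.349 in xol-1 and 0.316 in WT. The medians over all genes were 2.54, 2.68, 4.07, 3.62 and 3.62 FPKM in the same groups. A group mean of at least 1 FPKM was reached by 80 clec genes in early embryos, 97 at L1 and 102 at L3 of xol-1 sex-1, 93 in xol-1 and 89 in WT. Under that level in all 5 groups were 108 clec genes, and 15 were listed at 0 in all 19 samples. A few genes carried most of the family's RNA.

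In FPKM as deposited, the summed level of the family overlapped between early embryo and L1 samples, whose tables may have been scaled separately. It came to 5581 ± 556 FPKM in early embryos (SD, n = 3), 5939 ± 57.3 at L1 and 5066 ± 359 at L3 of xol-1 sex-1 (n = 4 each). At L3 it was 4041 ± 50.6 FPKM in xol-1 and 3891 ± 213 in WT (n = 4 each). The L3 samples of xol-1 sex-1 lay between 4665 and 5538 FPKM, above those of xol-1, at 3989 to 4089, and above those of WT, at 3667 to 4155. Samples of xol-1 and WT overlapped. As a share of all FPKM in a library the sum was 0.411% in early embryos, 0.487% at L1 and 0.325% at L3 of xol-1 sex-1, 0.242% in xol-1 and 0.255% in WT. By this share the early embryo samples, at 0.374% to 0.431%, lay below the L1 samples, at 0.467% to 0.506%. The mean of xol-1 was above that of WT as a sum and below it as a share, and their samples overlapped in both.

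**Figure D1:**
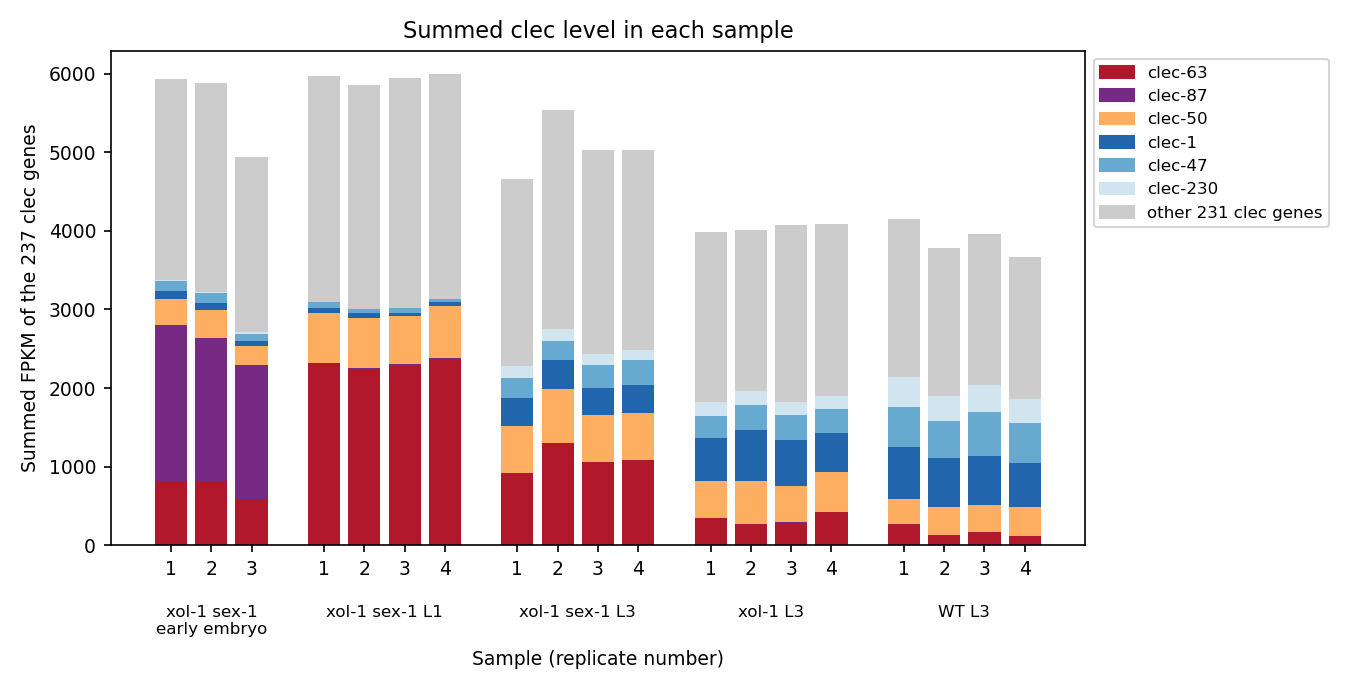
Summed FPKM of the 237 clec genes in each of the 19 samples (y axis, linear), by group and replicate number (x axis), with 6 abundant genes in colour and the other 231 in grey. The sum stands at 4665 to 5538 FPKM in the 4 xol-1 sex-1 samples at L3, above the 4 xol-1 and the 4 WT samples, and clec-63 and clec-87 make up much of the embryo bars.

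The gene with the highest level was not the same in early embryos as in larvae. In early embryos clec-87 alone gave 33.0% of the summed level, at L1 clec-63 gave 38.8%, and at L3 of xol-1 sex-1 clec-63 gave 21.5%. In xol-1 and WT at L3 the leading gene was clec-1, with 14.1% and 15.8% of the sum. Without clec-63 the L3 sums were 3975 ± 198 FPKM in xol-1 sex-1, 3709 ± 68.7 in xol-1 and 3716 ± 149 in WT (SD, n = 4 each). The gap between xol-1 sex-1 and the other genotypes at L3 was thus carried in large part by 1 gene.

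Levels across the ages of xol-1 sex-1 were described without a test, because the 3 ages come from separate tables that may have been scaled separately. Of 88 clec genes that reached a mean of 5 FPKM at some age, 15 (17%) were highest in early embryos, 37 (42%) at L1 and 36 (40.9%) at L3. Over all 12724 genes that reached this level, the shares were 39.9%, 22.7% and 37.4%. Taken as a share of each library's total FPKM, the clec genes divided 15, 46 and 27.

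A small group of clec genes stood far higher in early embryos than in larvae. clec-87 (chromosome I, 10184462 to 10185520, minus strand) stood at 1987, 1825 and 1715 FPKM in the embryo samples, at 8.36 to 10.8 at L1 and at 2.0 to 3.22 at L3. clec-91 (chromosome I, 9126140 to 9127101) had 443, 417 and 400 FPKM in embryos, 1.37 to 3.51 at L1 and 0.496 to 1.13 at L3. clec-196 (chromosome IV, 17276956 to 17277748) had 182, 219 and 345 FPKM in embryos, 0.336 to 2.19 at L1 and 1.06 to 1.64 at L3. In each of these genes every embryo sample lay far above every larval sample of the same strain. The exons of clec-87 overlap the opposite-strand gene iars-2 and those of clec-91 the opposite-strand gene ZK858.8.

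clec-190 (chromosome IV, 15124931 to 15126121) stood at 105, 99.6 and 76.4 FPKM in embryos and was listed at 0 in all 16 larval samples of the 3 genotypes. clec-97 (chromosome I, 11152704 to 11154330) had 20.1, 20 and 11 FPKM in embryos, 0.0977 in 1 L1 sample, and was listed at 0 in the other 3 and in all 12 L3 samples. It overlaps clec-98 on the opposite strand, and clec-190 overlaps annotated 21ur small RNA genes. Early embryos were obtained from bleached adults, and germline and sperm markers were also high there. The sum of 7 germline markers was 778 to 1002 FPKM in early embryos, 45.3 to 46.8 at L1 and 21.4 to 26.6 at L3 of xol-1 sex-1. The sum of 8 sperm markers was 132 to 211, 2.42 to 4.26 and 1.44 to 2.7 FPKM at the same ages. Whether those RNAs have a part in the embryo levels of these clec genes was not tested.

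clec-209 and clec-63 were abundant at more than 1 age. clec-209 (identifier WBGene00018910, chromosome V, 2459637 to 2460893) had 406, 482 and 319 FPKM in embryos, 45.7 to 48.4 at L1 and 32.1 to 46.0 at L3. clec-63 (chromosome II, 12895638 to 12897446) had 814, 818 and 584 FPKM in embryos, 2314, 2245, 2296 and 2374 at L1, and 917, 1306, 1061 and 1082 at L3. Its L1 samples were the highest values of any clec gene in the series.

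Several clec genes were at or near 0 at L1 and abundant at L3 of the same strain. clec-230 (chromosome V, 15347847 to 15349144) had 14.5, 19.6 and 27.8 FPKM in embryos, 0.132, 0, 0 and 0.154 at L1, and 150, 148, 133 and 127 at L3. clec-60, a gene known to be induced by Staphylococcus aureus infection, stood at 0.112 to 0.173 FPKM in embryos, 0.253 to 1.27 at L1 and 68.8 to 84.0 at L3. clec-82 had 0 to 0.075, 0.31 to 1.41 and 22.8 to 30.9 FPKM at the same ages, and clec-61 had 0 to 0.0975, 0.59 to 0.84 and 15.8 to 19.3. In these genes the L3 samples lay above all embryo and L1 samples. The exons of clec-60 and clec-82 each overlap a gene on their own strand.

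Other genes were already high at L1. clec-42 stood at 0.362 to 0.471 FPKM in embryos, 97.0 to 105 at L1 and 47.9 to 68.0 at L3, and clec-84 at 8.21 to 12.3, 139 to 145 and 48.3 to 60.2. clec-67, known as a target of PMK-1 signalling, was at 0.37 to 0.541 FPKM in embryos, 9.95 to 13.2 at L1 and 0.814 to 2.52 at L3. clec-199 was listed at 0 in all embryo samples, stood at 10.3 to 12.7 FPKM at L1, and was listed at 0 in 2 of the 4 L3 samples of this strain. It overlaps annotated 21ur small RNA genes. The first larval stage thus held both genes that were at their highest and genes that were close to 0.

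**Figure D2:**
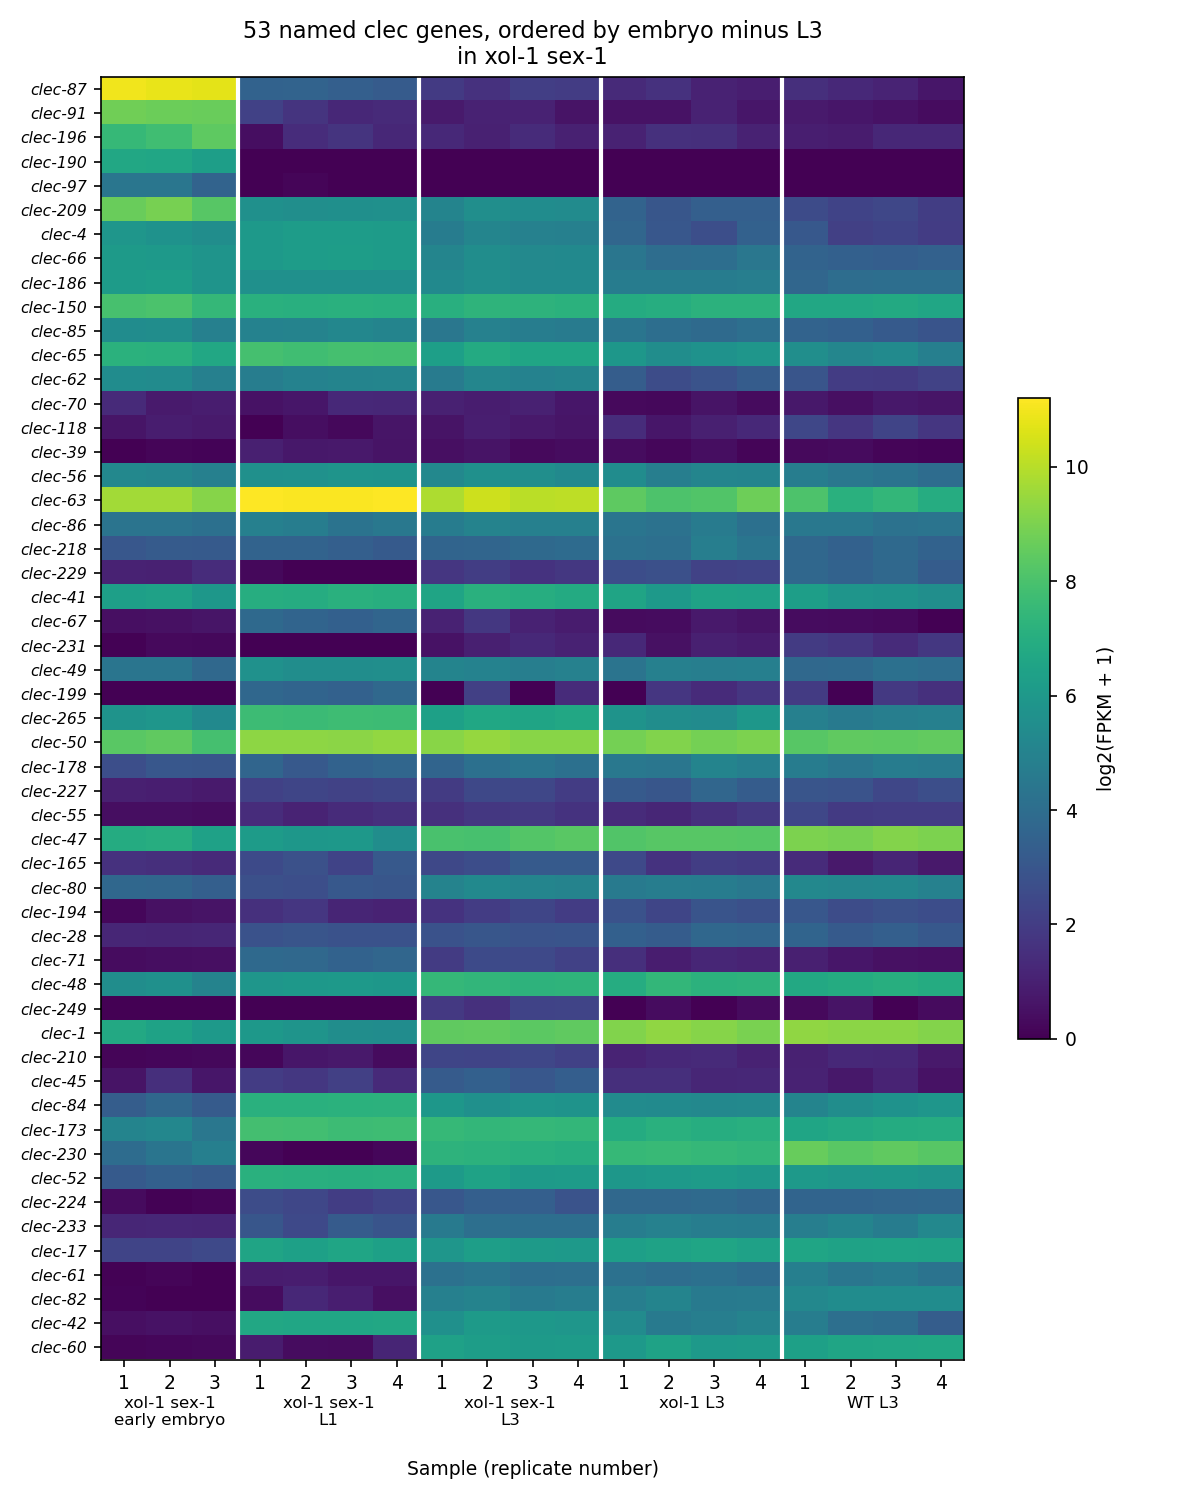
Level of 53 clec genes (rows) in the 19 samples (columns, by group and replicate) as log2(FPKM + 1), from dark (0) to yellow (about 11), ordered by the embryo mean minus the L3 mean of xol-1 sex-1. The top rows, from clec-87 to clec-97, are bright in the 3 embryo samples and dark in larvae, while clec-60, clec-61 and clec-82 near the bottom are bright at L3 only.

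Genotypes were compared at L3 with limma on log2(FPKM + 1), over the 13502 genes whose average in the 12 L3 samples reached 1 FPKM, and a gene was called where its Benjamini-Hochberg adjusted p was under 0.05. This level was met by 95 of the 237 clec genes (40.1%, against 61.4% of all genes), and the other 142 were not tested. On the mean of 1 group alone, 91 of the 95 would have passed in xol-1 sex-1, 90 in xol-1 and 86 in WT. clec-25, clec-43, clec-75 and clec-249 had a group mean of at least 1 FPKM only in xol-1 sex-1. clec-246 had one only in xol-1, and clec-231 only in WT. These genes entered the test through the group where they are high. The members just inside the limit were clec-206, at 1.01 FPKM, and clec-75 and clec-246, both at 1.04. Just outside were clec-204, at 0.978, clec-32, at 0.975, and clec-197, at 0.947. In whole animals, fewer cells of a type and less RNA per cell cannot be told apart.

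In xol-1 sex-1 relative to xol-1, strains that differ by sex-1 (gk829) in the labels, more clec genes rose than fell. Of the 95 tested, 35 rose (36.8%) and 16 fell (16.8%), while 22.9% of all genes tested rose and 26.3% fell. The 35 include clec-25, clec-43, clec-75 and clec-249, which reached the limit for testing only through xol-1 sex-1. At a further threshold of 1.5-fold, 23 clec genes rose and 8 fell, against 9.04% and 5.84% of all genes. The 4 values of xol-1 sex-1 all lay above the 4 of xol-1 in 31 clec genes and all below in 13, against 20.3% and 23% of all genes. The median log2 fold change was 0.12 over the tested clec genes and -0.02 over all genes. Without xol-1 replicate 2 the number that fell was 25. With a mean of at least 5 FPKM as the limit for testing, 19 clec genes rose and 15 fell, with a median of 0.06. The surplus of rises over falls was thus smaller at that limit. For these other settings the shares over all genes are not given here, so their counts do not set the family apart from other genes.

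The clec gene with the largest rise was clec-209. It had 32.1, 46.0, 43.0 and 41 FPKM in xol-1 sex-1, 10.9, 7.01, 9.63 and 9.5 in xol-1, and 4.96, 3.76, 4.22 and 3.07 in WT. The 3 genotypes did not overlap, and xol-1 sex-1 was highest and WT lowest. The log2 fold change was 2.02 (SE 0.15, adjusted p = 8.21e-07) in xol-1 sex-1 relative to xol-1 and 3.06 (SE 0.15, adjusted p = 3.96e-08) in xol-1 sex-1 against WT.

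clec-62 (chromosome II, 12893062 to 12895128) had 24.3, 34.9, 30.5 and 32 FPKM in xol-1 sex-1, 8.89, 5.08, 6.34 and 8.48 in xol-1, and 6.69, 3.0, 2.9 and 3.62 in WT. Values of xol-1 sex-1 lay above both other genotypes, which overlapped each other. It rose by 1.95 on the log2 scale against xol-1 (SE 0.22, adjusted p = 1.99e-05). Its neighbour clec-63 had 917, 1306, 1061 and 1082 FPKM in xol-1 sex-1, 347, 268, 290 and 425 in xol-1, and 273, 136, 169 and 122.3 in WT. It rose 3.28-fold in the ratio of means, or 1.72 on the log2 scale (SE 0.23, adjusted p = 8.56e-05).

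clec-45 (chromosome V, 7638101 to 7638657) had 8.28, 9.9, 7.21 and 9.24 FPKM in xol-1 sex-1, 1.88, 1.88, 1.28 and 1.36 in xol-1, and 1.12, 0.66, 1.14 and 0.466 in WT. Its log2 fold change against xol-1 was 1.89 (SE 0.15, adjusted p = 1.39e-06). clec-4, a gene studied for its part in responses to pathogenic bacteria, had 24.8, 33.0, 29.9 and 28.6 FPKM in xol-1 sex-1, 12.2, 7.16, 5.56 and 10.1 in xol-1, and 7.55, 3.39, 3.75 and 3.03 in WT. Its log2 fold change against xol-1 was 1.67 (SE 0.25, adjusted p = 0.000182). In both genes every xol-1 sex-1 sample lay above every sample of the other genotypes.

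clec-249 (identifier WBGene00013063, chromosome V, 18305181 to 18305571) was nearly absent outside xol-1 sex-1 at L3. It had 2.6, 1.96, 3.71 and 3.9 FPKM in xol-1 sex-1, 0, 0.287, 0 and 0.247 in xol-1, and 0.223, 0.485, 0 and 0.255 in WT. It was also listed at 0 in all early embryo and L1 samples of xol-1 sex-1. The fitted log2 fold change of 1.81 against xol-1 (SE 0.18, adjusted p = 8.91e-06) depends on the value of 1 added before the logarithm, since the xol-1 samples are at or close to 0. The gene also reached the limit for testing only through xol-1 sex-1, the group where it is high, so its call is no support of its own. clec-71, known to be induced by Staphylococcus aureus, had 2.83, 4.75, 4.6 and 3.56 FPKM in xol-1 sex-1, 1.82, 0.889, 1.3 and 1.15 in xol-1, and 1.01, 0.605, 0.4 and 0.383 in WT. It rose by 1.1 on the log2 scale (SE 0.17, adjusted p = 0.000268). clec-210 rose by 1.08 (SE 0.13, adjusted p = 3.2e-05), with means of 3.89 ± 0.328 FPKM in xol-1 sex-1 and 1.31 ± 0.199 in xol-1, and its exons overlap the opposite-strand gene srt-56.

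The falls were smaller. The largest was that of clec-227 (chromosome V, 14472529 to 14474374), which had 2.85, 4.47, 4.27 and 3.0 FPKM in xol-1 sex-1, 8.11, 7.12, 11.9 and 8.71 in xol-1, and 6.83, 6.27, 4.24 and 5.43 in WT. The xol-1 samples were the highest, and xol-1 sex-1 overlapped WT. Its log2 fold change was -1.1 (SE 0.17, adjusted p = 0.00027). clec-1 (chromosome V, 5700154 to 5701080), the most abundant clec gene of xol-1 and WT larvae at L3, had 358, 361, 337 and 351 FPKM in xol-1 sex-1, 549, 652, 585 and 496 in xol-1, and 659, 621, 615 and 561 in WT. It fell by 0.69 on the log2 scale (SE 0.08, adjusted p = 2.66e-05). Every xol-1 sex-1 sample of clec-1 lay below every sample of the other genotypes, which overlapped each other.

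Also among the largest falls were clec-194, at -0.72 (SE 0.16, adjusted p = 0.00278), clec-229, at -0.67 (SE 0.15, adjusted p = 0.00276), and clec-178, at -0.63 (SE 0.16, adjusted p = 0.00588). clec-28, clec-224 and clec-218 fell by 0.61, 0.61 and 0.60. In each of these 6 genes the 4 xol-1 sex-1 values lay below the 4 xol-1 values. The exons of clec-194 overlap annotated 21ur small RNA genes.

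**Figure D3:**
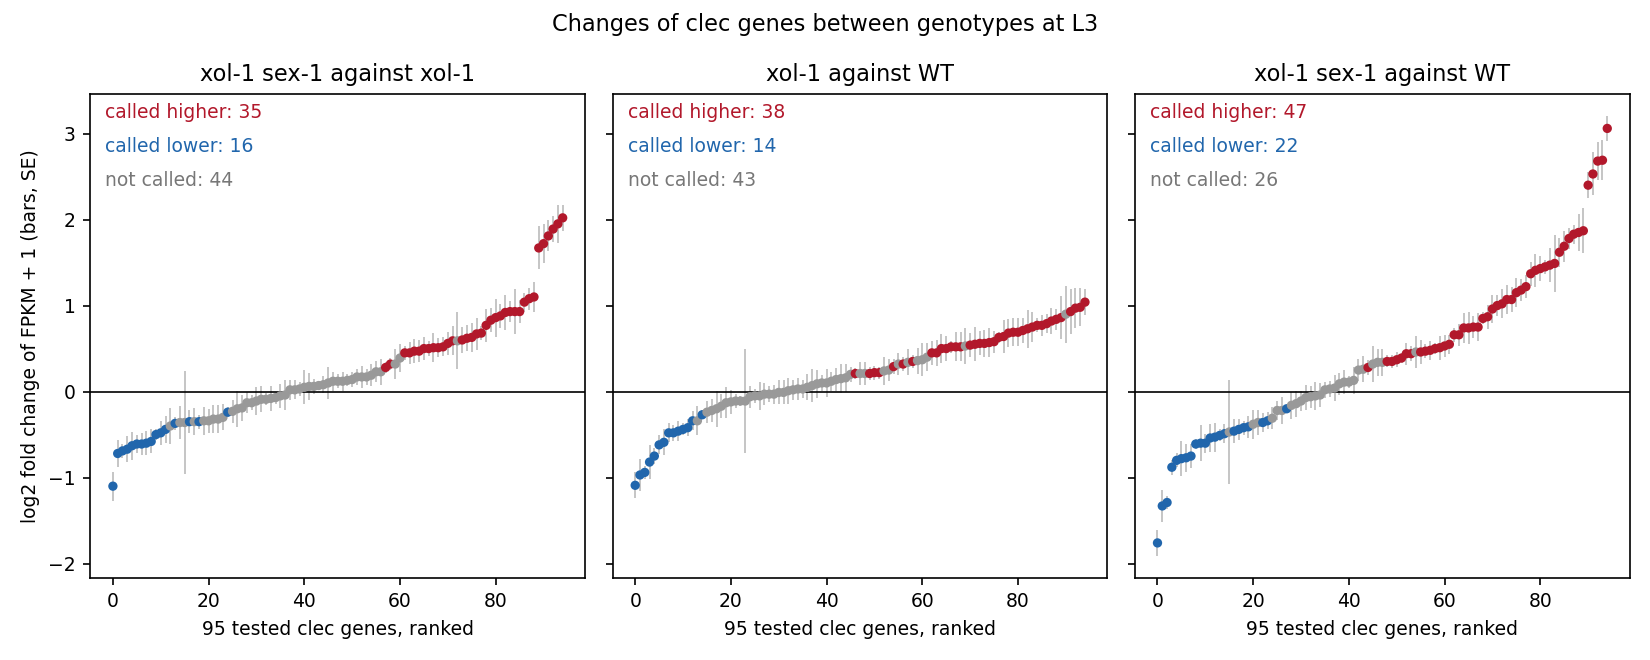
Log2 fold change of FPKM + 1 (y axis, bars are the SE of the fit) for the 95 tested clec genes in each L3 comparison, ranked along the x axis. Red points are called higher, blue points called lower and grey points not called, and the calls number 35 and 16, 38 and 14, and 47 and 22.

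The comparison of xol-1 with WT sets side by side strains that differ by xol-1 (ne4472) in the labels. There 38 of the 95 tested clec genes rose (40.0%) and 14 fell (14.7%), while 16% of all genes tested rose and 14.7% fell. The rises include clec-246, which reached the limit for testing only through xol-1, and the falls clec-231, which reached it only through WT. At 1.5-fold, 18 clec genes rose and 7 fell, against 4.01% and 4.73% of all genes. The 4 xol-1 values all lay above the 4 WT values in 23 clec genes and all below in 14, against 14.9% and 14.6% of all genes. The median log2 fold change was 0.21 over the tested clec genes and 0.0 over all genes.

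This comparison rested on single libraries more than the other. Of its 52 calls, 17 were lost when 1 library was left out, against 3 of 51 in xol-1 sex-1 relative to xol-1. Without xol-1 replicate 1, or without xol-1 replicate 4, 24 clec genes rose. Rescaling the L3 columns to a common sum gave 26 rises and 16 falls, so that 61.9% of the calls were rises in place of 73.1%. That rescaling moved the median of all genes in this comparison to -0.12, and the clec median lay 0.2 above it, against 0.21 as deposited.

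clec-209 rose by 1.04 on the log2 scale in xol-1 against WT (SE 0.15, adjusted p = 0.000213). clec-165 had 4.41, 5.35, 8.15 and 8.0 FPKM in xol-1 sex-1, 4.55, 2.09, 3.06 and 2.7 in xol-1, and 1.6, 0.691, 1.24 and 0.714 in WT, and it rose by 0.98 in xol-1 against WT (SE 0.22, adjusted p = 0.0045). Its exons overlap F38A1.9 on the same strand. clec-265 lies on the X chromosome (3031783 to 3033117) and had 52.7, 43.6, 41.7 and 61 FPKM in xol-1, against 28.9, 23.5, 26.8 and 28.8 in WT. It rose by 0.84 (SE 0.12, adjusted p = 0.000172), with all xol-1 samples above all WT samples.

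clec-85, known as a target of PMK-1, had 19.3, 15.5, 13.9 and 16 FPKM in xol-1 and 10.9, 9.71, 7.96 and 6.58 in WT, a rise of 0.82 (SE 0.15, adjusted p = 0.000959). Its exons overlap Y54G2A.40 on the same strand. clec-186 had 25, 24.9, 25.2 and 26.8 FPKM in xol-1, against 11.9, 15.2, 15.4 and 15.7 in WT, and rose by 0.77 (SE 0.08, adjusted p = 3.32e-05). clec-49, linked to resistance against Serratia marcescens, had 19.2, 28.5, 26.4 and 27.8 FPKM in xol-1, against 13, 13.1, 16.4 and 15.3 in WT. It rose by 0.77 (SE 0.12, adjusted p = 0.000354), and clec-66 and clec-56 rose by 0.79 and 0.75. In each of these genes the xol-1 and WT samples did not overlap.

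The falls in xol-1 against WT included some of the most abundant clec genes of wild-type L3 larvae. clec-47 (chromosome V, 15175759 to 15176324) had 253, 243, 299 and 326 FPKM in xol-1 sex-1, 285, 316, 311 and 306 in xol-1, and 510, 476, 561 and 510 in WT. The mutants overlapped each other and lay below WT, and the log2 fold change in xol-1 against WT was -0.75 (SE 0.09, adjusted p = 6.07e-05). clec-230 had 150, 148, 133 and 127 FPKM in xol-1 sex-1, 182, 189, 176 and 164 in xol-1, and 385, 321, 353 and 310 in WT. It fell by 0.94 in xol-1 against WT (SE 0.08, adjusted p = 9.23e-06), and the genotypes did not overlap.

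Near clec-230 on chromosome V lie clec-229 and clec-231, which fell as well. clec-229 had 2.42, 3.05, 2.15 and 2.56 FPKM in xol-1 sex-1, 5.36, 5.73, 3.7 and 3.91 in xol-1, and 12.4, 10.6, 12.8 and 8.61 in WT. Its log2 fold change in xol-1 against WT was -1.09 (SE 0.15, adjusted p = 0.000152). clec-231 averaged 0.931 ± 0.427 FPKM in xol-1 and 2.38 ± 0.54 in WT, a log2 fold change of -0.82 (SE 0.2, adjusted p = 0.00651). It reached the limit for testing only through WT, the group where it is high. clec-118, clec-82, clec-55 and clec-61 fell by 0.97, 0.62, 0.59 and 0.48, each with all xol-1 samples below all WT samples. The exons of clec-82 overlap Y54G2A.7 and those of clec-55 overlap R02D5.10, both on the same strand.

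The age profile of the called genes was set beside their calls, since the early samples are of xol-1 sex-1 and share no library with xol-1 or WT at L3. Of the 38 clec genes that rose in xol-1 against WT, 24 (63.2%) had a higher mean at L1 than at L3 of xol-1 sex-1, and of the 14 that fell, 1 did (7.14%). Among the 43 not called, 20 did (46.5%). Over all genes the shares were 35.6% of those that rose, 12.5% of those that fell and 33.4% of those not called. These shares set L1 beside L3 in FPKM from tables that may have been scaled separately. No recount by share of each library's total FPKM is given here.

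Against WT, xol-1 sex-1 showed the widest changes. Of the 95 tested clec genes, 47 rose (49.5%) and 22 fell (23.2%), while 25.2% of all genes tested rose and 28.1% fell. The rises include clec-25, clec-43, clec-75 and clec-249, tested only through xol-1 sex-1, and the falls clec-231, tested only through WT. At 1.5-fold, 33 rose and 11 fell, against 10.5% and 7.9% of all genes. The 4 xol-1 sex-1 values all lay above the 4 WT values in 45 clec genes and all below in 20, against 23.5% and 26.3% of all genes. The median log2 fold change was 0.34 over the tested clec genes and -0.03 over all genes. This comparison shares its samples with the other comparisons and is not independent of them.

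The largest rises after clec-209 were those of clec-63, at 2.69 (SE 0.23, adjusted p = 2.22e-06), and clec-62, at 2.68 (SE 0.22, adjusted p = 1.28e-06). clec-4 rose by 2.53, clec-45 by 2.4, clec-42 by 1.87, clec-165 by 1.85 and clec-66 by 1.83, all with no overlap between xol-1 sex-1 and WT. The largest falls were those of clec-229, at -1.76 (SE 0.15, adjusted p = 1.71e-06), clec-118, at -1.33 (SE 0.19, adjusted p = 8.72e-05), and clec-230, at -1.29 (SE 0.08, adjusted p = 1.85e-07). clec-118 had 0.493, 0.921, 0.706 and 0.555 FPKM in xol-1 sex-1, 1.71, 0.621, 0.953 and 1.43 in xol-1, and 4.19, 2.44, 3.97 and 2.43 in WT. clec-47, clec-1, clec-231, clec-194 and clec-233 fell by 0.88, 0.80, 0.78, 0.77 and 0.75.

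**Figure D4:**
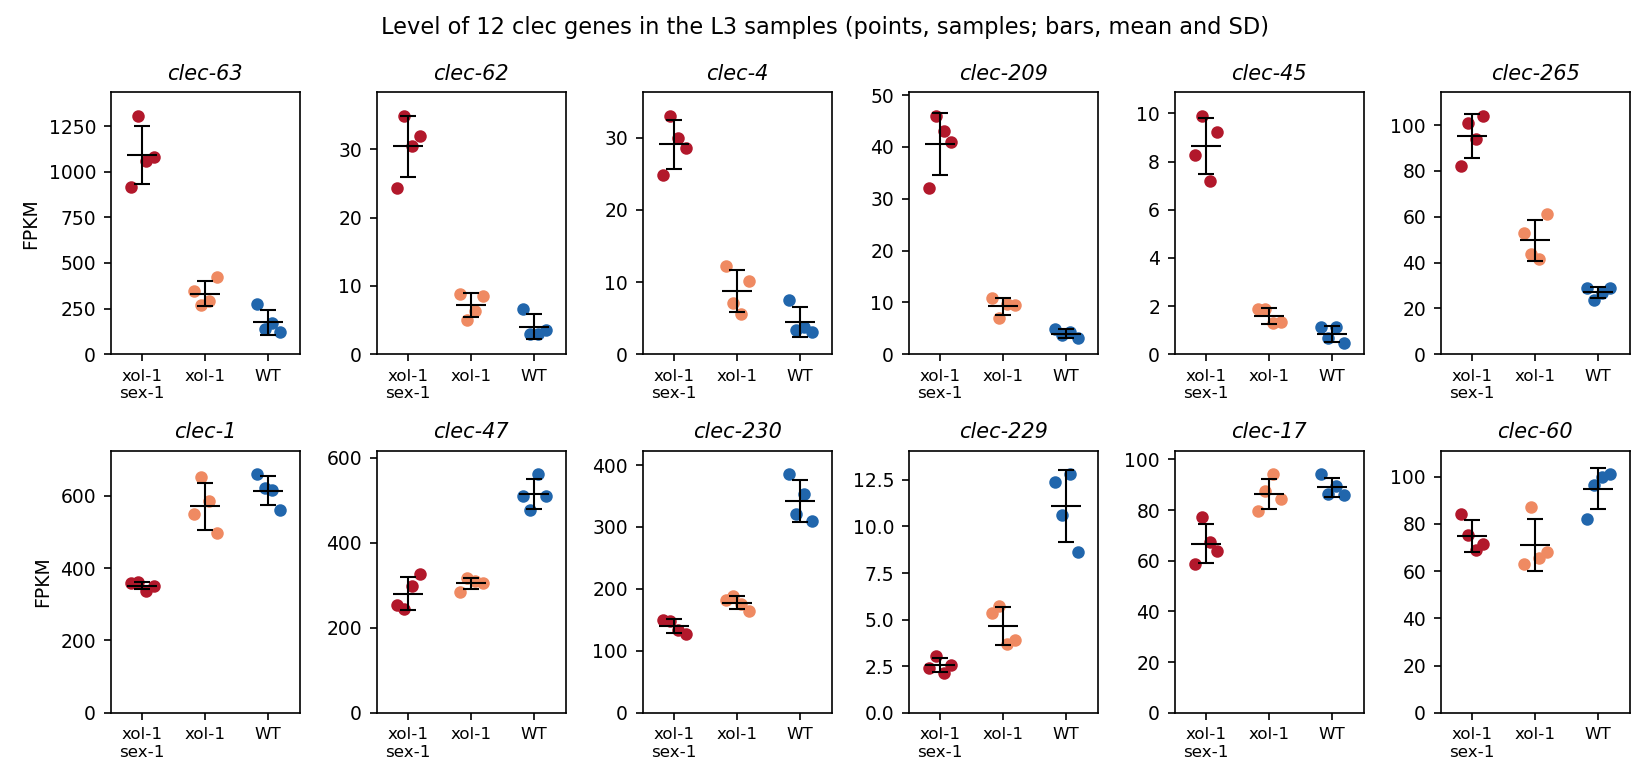
FPKM of 12 clec genes in the L3 samples (y axis, linear from 0), with xol-1 sex-1, xol-1 and WT from left to right, a point for each of 4 samples and bars for the mean and SD. The upper row shows genes highest in xol-1 sex-1, such as clec-63 at 917 to 1306 FPKM there, and the lower row genes lower in 1 or both mutants, such as clec-230.

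The 3 comparisons share samples, so their calls side by side are a description. Of the 95 tested clec genes, 21 rose in each comparison and 2, clec-229 and clec-230, fell in each, while 2.3% of all genes tested rose and 2.3% fell in each. The number that rose in each was 12 without WT replicate 4 or without xol-1 replicate 1, where 1.66% and 1.5% of all genes did. It was 13 without WT replicate 2 or without xol-1 replicate 4, where 1.93% and 1.63% of all genes did. In group means 40 genes had the order xol-1 sex-1 above xol-1 above WT, and 14 had the reverse order. Another 9 genes, clec-60, clec-61, clec-82, clec-47, clec-76, clec-118, clec-180, clec-231 and clec-264, fell in both mutants against WT with no call between the mutants (some of these names were picked after their values were seen). In a further 8, clec-1, clec-17, clec-28, clec-149, clec-178, clec-194, clec-224 and clec-233, xol-1 sex-1 fell against both other genotypes with no call between xol-1 and WT. Of these, the call of clec-28 against WT (log2 fold change -0.41, adjusted p = 0.0187) was lost without WT replicate 1, with an adjusted p of 0.0595. No call was made in any comparison for 15 genes. For the orders of means and for the sets of 9, 8 and 15 genes, the shares over all genes are not given here. Those counts describe the members and do not set the family apart from other genes.

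A few genes went in opposite directions in the first 2 comparisons, and they were chosen after their values were seen. clec-80 had 31.4, 39.2, 33.5 and 31.7 FPKM in xol-1 sex-1, 22.6, 25.6, 25.1 and 21.7 in xol-1, and 36.2, 33.9, 35.1 and 29.0 in WT. It rose by 0.50 in xol-1 sex-1 relative to xol-1 (SE 0.09, adjusted p = 0.000633) and fell by 0.48 in xol-1 against WT (SE 0.09, adjusted p = 0.00125), so that xol-1 was lowest. clec-218 had 11.2, 11.7, 13.1 and 14.2 FPKM in xol-1 sex-1, 17, 16.1, 26.5 and 19.5 in xol-1, and 12.5, 10.1, 13.1 and 10.6 in WT. It fell by 0.60 in xol-1 sex-1 relative to xol-1 (SE 0.14, adjusted p = 0.00363) and rose by 0.71 in xol-1 against WT (SE 0.14, adjusted p = 0.00201). clec-160, clec-170 and clec-227 had the same pair of calls as clec-218. The rise of clec-160 in xol-1 against WT was lost without any of WT replicates 2, 3 and 4 or xol-1 replicates 1, 3 and 4, with adjusted p up to 0.0852. That of clec-227 was lost without WT replicate 3 or 4 or xol-1 replicate 3 or 4, with adjusted p up to 0.0782.

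Within some runs of neighbouring clec genes the members differed. The run of clec-62 to clec-66 on chromosome II (12893062 to 12906644) holds 5 genes, all tested. In xol-1 sex-1 relative to xol-1, clec-62, clec-63, clec-65 and clec-66 rose by 1.95, 1.72, 0.83 and 1.04, each with no overlap between the groups. clec-64, which lies between them and was named after its values were seen, had 8.18, 13.7, 12 and 10.9 FPKM in xol-1 sex-1, 12.5, 9.58, 13.2 and 12.2 in xol-1, and 10.9, 9.63, 8.2 and 7.6 in WT. Its genotypes overlapped, and its log2 fold change in xol-1 sex-1 relative to xol-1 was -0.09 (SE 0.15, adjusted p = 0.638).

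clec-65 had 80.3, 114, 96.8 and 94.8 FPKM in xol-1 sex-1, 60.7, 44.6, 51.9 and 58.2 in xol-1, and 44.9, 34.5, 40.3 and 28.0 in WT. clec-66 had 33.0, 43.5, 37.4 and 38.6 FPKM in xol-1 sex-1, 20.4, 15.3, 15.8 and 20.8 in xol-1, and 10.8, 9.69, 9.2 and 10.1 in WT. Both were highest in xol-1 sex-1 and lowest in WT. clec-64 also stood apart by age, at 0.11 to 0.223 FPKM in embryos, where the other 4 genes of the run ranged from 28.6 to 818. Salmon, which the submitters' processing notes name, divides reads among similar sequences, and how alike these neighbours are was not assessed.

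**Figure D5:**
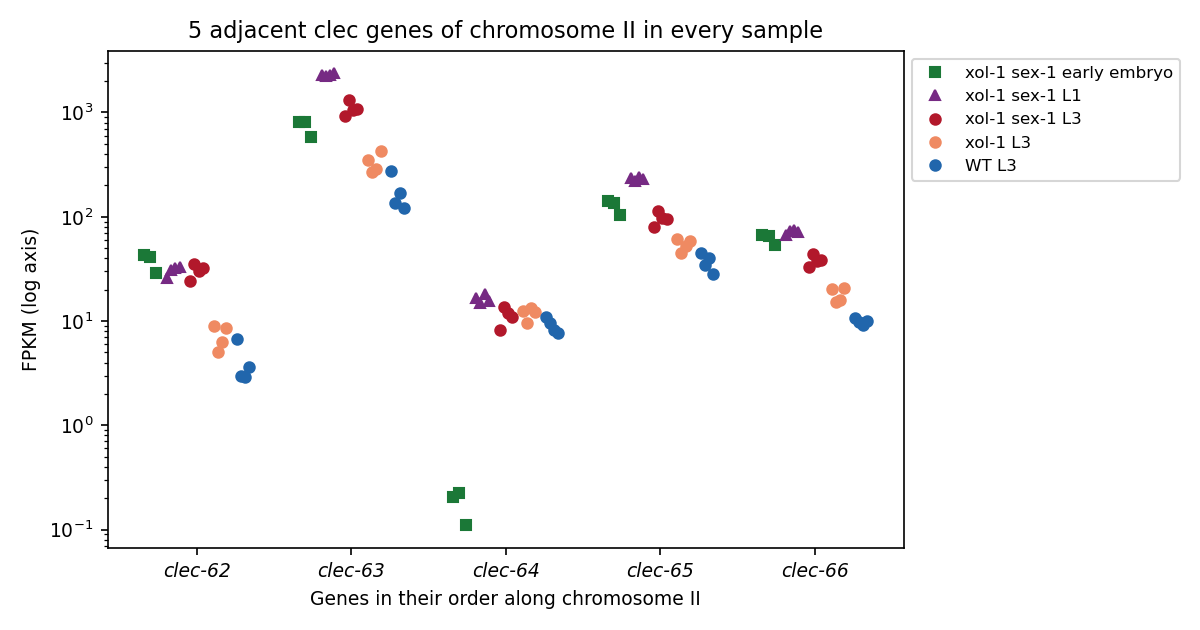
FPKM (log axis) of 5 adjacent clec genes of chromosome II in their order along the chromosome (x axis), a point per sample, by group. For clec-62, clec-63, clec-65 and clec-66 the xol-1 sex-1 L3 points lie above those of xol-1 and WT, while those of clec-64 overlap at L3 and its embryo points lie at 0.11 to 0.223 FPKM.

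On chromosome V, clec-57, clec-227, clec-56, clec-54 and clec-55 form a run between 14469231 and 14482317 whose members differed in direction, and clec-54 and clec-57 were named after their values were seen. clec-56 averaged 42.4 ± 5.36 FPKM in xol-1 sex-1, 33.9 ± 6.44 in xol-1 and 20 ± 4.97 in WT (SD, n = 4 each), and clec-55 averaged 2.3 ± 0.34, 1.84 ± 0.565 and 3.25 ± 0.676. In xol-1 sex-1 against WT, clec-56 had a log2 fold change of 1.07 (SE 0.17, adjusted p = 0.00019), clec-54 of -0.46 (SE 0.14, adjusted p = 0.0128) and clec-57 of -0.22 (SE 0.16, adjusted p = 0.263). Among 21 adjacent clec pairs with both genes tested, both rose in 3 (14.3%) and none fell together in xol-1 sex-1 relative to xol-1, where 6.35% of all adjacent pairs rose and 8.98% fell together. No clec pair had opposite calls there, against 9.91% of all pairs. In xol-1 against WT both rose in 7 (33.3%) and both fell in 1, where 3.91% and 3.24% of all pairs did, and 0 had opposite calls, against 3.84% of all pairs. In xol-1 sex-1 against WT both rose in 5 (23.8%), both fell in 1 (4.76%) and 3 had opposite calls (14.3%), where the shares of all pairs were 8.05%, 9.98% and 11.9%. Taken singly, tested clec genes also rose more often in these 3 comparisons, at 36.8%, 40.0% and 49.5%, against 22.9%, 16% and 25.2% of all genes. Pairs in a run share genes, and whether neighbours moved together beyond the family's own rates was not tested.

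A list of 13 clec genes linked in the worm to bacterial infection was examined, of which 10 were tested. In xol-1 sex-1 relative to xol-1, 6 rose and 1 fell, in xol-1 against WT 6 rose and 2 fell, and in xol-1 sex-1 against WT 7 rose and 3 fell. Over all genes tested, 22.9% rose and 26.3% fell in the first comparison, 16% and 14.7% in the second, and 25.2% and 28.1% in the third, so 3 falls of 10 in the third are close to the share over all genes. The median log2 fold changes of the list were 0.51, 0.51 and 1.01. clec-42 had 47.9, 68.0, 62.3 and 59.0 FPKM in xol-1 sex-1, 41.5, 23.7, 27.2 and 31.6 in xol-1, and 25.9, 16.2, 14.8 and 8.93 in WT, and rose by 0.93 in xol-1 sex-1 relative to xol-1 (SE 0.26, adjusted p = 0.0114). clec-85 had 20.7, 29.8, 25.6 and 24.5 FPKM in xol-1 sex-1 and rose by 0.60 there (SE 0.15, adjusted p = 0.00449). clec-86, on the X chromosome (7139875 to 7140566) and overlapping alh-10 on the other strand, averaged 28.1 ± 2.67 FPKM in xol-1 sex-1, 19.6 ± 3.24 in xol-1 and 19.9 ± 1.98 in WT. It rose by 0.51 in xol-1 sex-1 relative to xol-1 (SE 0.11, adjusted p = 0.00215).

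clec-41 had 93.8, 136, 127 and 115 FPKM in xol-1 sex-1, 93.8, 64.1, 88.1 and 83.3 in xol-1, and 78.2, 56.0, 53.7 and 45.4 in WT. Its rise of 0.51 in xol-1 sex-1 relative to xol-1 (SE 0.17, adjusted p = 0.022) was lost without xol-1 replicate 2 or xol-1 sex-1 replicate 2 or 3, with adjusted p up to 0.0632. The xol-1 against WT rises of clec-41 and clec-71, at 0.50 and 0.52, were each lost without any of WT replicates 2, 3 and 4 or xol-1 replicates 1, 3 and 4, with adjusted p up to 0.103 and 0.114. That of clec-4, at 0.86, was lost without WT replicate 2 or 4 or xol-1 replicate 1 or 4, with adjusted p up to 0.057.

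Not every gene of the list rose. clec-17 had 58.8, 77.1, 67.3 and 63.7 FPKM in xol-1 sex-1, 79.6, 87.4, 94.1 and 84.4 in xol-1, and 94.1, 86.5, 89.4 and 86.1 in WT, and fell by 0.37 in xol-1 sex-1 relative to xol-1 (SE 0.08, adjusted p = 0.00202). clec-60 had 84.0, 75.5, 68.8 and 71.3 FPKM in xol-1 sex-1, 63.2, 87.3, 65.6 and 68.2 in xol-1, and 82.1, 96.5, 99.8 and 101 in WT. It fell by 0.42 in xol-1 against WT (SE 0.1, adjusted p = 0.00826), although 1 sample of xol-1 lay inside the WT range. clec-61 averaged 17.1 ± 1.54 FPKM in xol-1 sex-1, 15.7 ± 1.25 in xol-1 and 22.4 ± 4.02 in WT (SD, n = 4 each). clec-39, clec-67 and clec-70 were below the limit for testing. They averaged 0.358, 1.39 and 0.883 FPKM in xol-1 sex-1, 0.226, 0.436 and 0.292 in xol-1, and 0.171, 0.185 and 0.553 in WT.

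Genes that regulate intestinal defence were read beside the family, from a list of 31 with 28 tested. In xol-1 sex-1 relative to xol-1, 17 rose and 1 fell, in xol-1 against WT 2 rose and 2 fell, and in xol-1 sex-1 against WT 17 rose and 2 fell. Over all genes tested the shares that rose were 22.9%, 16% and 25.2%, and those that fell 26.3%, 14.7% and 28.1%, so calls of the list in xol-1 against WT were fewer than those shares would give in both directions. cebp-1, a C/EBP transcription factor, averaged 202 ± 54.3 FPKM in xol-1 sex-1 and 57.0 ± 8.6 in xol-1, a log2 fold change of 1.78 (SE 0.16, adjusted p = 4.49e-06). zip-2, a bZIP factor of infection responses, averaged 381 ± 90.5 and 137 ± 20.9 FPKM in the same groups, a rise of 1.45 (SE 0.16, adjusted p = 2.26e-05). vhp-1, a phosphatase that dampens MAP kinase signals, rose by 1.11 (SE 0.22, adjusted p = 0.00155), and nipi-3, a Tribbles-family pseudokinase, by 1.05 (SE 0.13, adjusted p = 4.34e-05).

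Within the p38 pathway the members differed. sek-1, the kinase above PMK-1, rose by 0.39 in xol-1 sex-1 relative to xol-1 (SE 0.08, adjusted p = 0.00193), and atf-7, the transcription factor below it, rose by 0.63 (SE 0.09, adjusted p = 0.000166). pmk-1 itself averaged 79.8 ± 1.78 FPKM in xol-1 sex-1 and 86.8 ± 4.04 in xol-1, a log2 fold change of -0.12 (SE 0.05, adjusted p = 0.0625). The GATA factor elt-2, which drives intestinal genes, rose by 0.19 (SE 0.07, adjusted p = 0.0402). tir-1 and nhr-49 were listed at 0 in every group and mpk-1 in both mutants, so these genes could not be compared.

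Markers of several tissues moved with the genotypes, and their part in the clec results was not tested. Their counts of calls are to be read against the shares over all genes tested, which were 22.9% higher and 26.3% lower in xol-1 sex-1 relative to xol-1, 16% and 14.7% in xol-1 against WT, and 25.2% and 28.1% in xol-1 sex-1 against WT. Of 8 intestinal markers tested, 5 rose and 0 fell in xol-1 sex-1 relative to xol-1, 3 rose and 0 fell in xol-1 against WT, and 6 rose and 0 fell in xol-1 sex-1 against WT. Their summed level was 2087 to 2722 FPKM in xol-1 sex-1, 2109 to 2527 in xol-1 and 1718 to 1966 in WT, and ifb-2 was listed at 0 in embryos and L1 larvae. Pharyngeal markers summed to 144 to 170 FPKM in xol-1 sex-1, 39.9 to 96.6 in xol-1 and 45.1 to 68.4 in WT, and 4 of 4 tested rose in xol-1 sex-1 relative to xol-1. The same sum was 1226 to 1408 FPKM at L1 of xol-1 sex-1. Of these 4 markers, 1 rose and 1 fell in xol-1 against WT, and 3 rose and 0 fell in xol-1 sex-1 against WT. Body muscle markers summed to 1557 to 1828 FPKM in xol-1 sex-1, 973 to 1354 in xol-1 and 1031 to 1194 in WT, and to 3700 to 4237 at L1. Of 5 tested, 3 rose in xol-1 sex-1 relative to xol-1, 1 in xol-1 against WT and 4 in xol-1 sex-1 against WT, and 0 fell.

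Hypodermal markers ran the other way against WT, with 0 of 5 tested rising and 4 falling in xol-1 sex-1 against WT. In xol-1 against WT 0 rose and 3 fell, while in xol-1 sex-1 relative to xol-1 1 rose and 0 fell. The hypodermal markers summed to 2680 to 3071 FPKM in xol-1 sex-1, 1975 to 2588 in xol-1 and 3345 to 4440 in WT, and to 50.8 to 58.3 at L1, with elt-3 listed at 0 at L3. Germline markers summed to 21.4 to 26.6 FPKM in xol-1 sex-1, 7.52 to 12.8 in xol-1 and 4.29 to 8.44 in WT. Of these 7 markers pgl-1 was listed at 0 in every L1 and L3 sample of xol-1 sex-1, but not in every sample of xol-1 or of WT. Only 3 germline markers were tested. Of these, 2 rose in xol-1 sex-1 relative to xol-1, 2 in xol-1 against WT and 3 in xol-1 sex-1 against WT, and 0 fell. Of 7 neuronal markers 1 rose and 3 fell in xol-1 sex-1 relative to xol-1, and of 3 coelomocyte markers 0 rose and 1 fell. In xol-1 against WT 0 neuronal markers rose and 1 fell, and no coelomocyte marker was called. In xol-1 sex-1 against WT 2 neuronal markers rose and 4 fell, and 1 coelomocyte marker rose and 0 fell. Sperm markers summed to at most 2.7 FPKM at L3 in any sample, and male markers to 7.35 to 12.7.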

How the data were processed

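Directional RNA-seq libraries of whole populations were deposited by the authors as 3 tables of FPKM per gene, 1 for each age. The submitters' processing notes name cutadapt 2.3, FastQC 0.11.8, Salmon 1.9.0, DESeq2 1.42.0 and the build WBcel235, without role or order, and how the FPKM were scaled is not given in the sources used here. Across the 12 L3 columns, median-of-ratios factors over autosomal genes lay at 0.9988 to 1.0079. Column sums ran from 1490755 to 1717684 FPKM. The deposited L3 columns were thus nearly level by median of ratios and not by their sums. Columns were matched to samples by name, and 13 columns that match no sample here were not used. Gene names and positions came from Ensembl release 115.

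Genotypes were compared with limma 3.58.1 (R 4.3.3, statmod 1.5.0) on log2(FPKM + 1), with trended and robust moderation, the 12 L3 samples sharing 1 estimate of spread, and two-sided p-values adjusted by Benjamini-Hochberg over 13502 genes. Fold changes on this scale understate those of low genes. No count test was possible. The fit was tested on simulated data. Named genes were the 8 largest non-overlapping calls in each direction and comparison, the 8 most abundant in each group, the bacterial-response list, and genes reaching 5 FPKM at 1 age and listed at 0 at another. The members and lists were chosen with earlier results of these data known. Other pseudocounts, filters, scalings and fits, and leaving out each replicate, were tried. Protein and promoter sequences were not used here. Python 3.11.15, numpy 2.4.6, pandas 2.3.3 and matplotlib 3.10.9 were used for summaries.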

Additional observations from a re-analysis of the deposited data

Results flagged for a closer look

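Among 179 groups of 4 samples of the named clec genes, 8 held a sample whose gap to the nearest other sample exceeded Dixon's 95% limit, which chance alone gives in about 1 of 20 groups. Replicate 2 of xol-1 sex-1 at L3 was high in clec-50, at 686 FPKM against 597 to 601 in the other replicates, and in clec-52, at 87.9 against 67.2 to 69.4. Replicate 1 of xol-1 sex-1 was high in clec-233, at 23.8 FPKM against 15.4 to 16.3. In xol-1, replicate 4 was high in clec-186, at 26.8 FPKM against 24.9 to 25.2, and replicate 2 was high in clec-233, at 29.3 against 25.5 to 26. In WT, replicate 1 was high in clec-4, at 7.55 FPKM against 3.03 to 3.75, and low in clec-82, at 36.6 against 42.9 to 43.2, and in clec-186, at 11.9 against 15.2 to 15.7.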

How the results depend on the processing

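Of the recomputed counts, medians and sums, 157 stayed close to the reported value (within 1.5 times for counts) and 21 moved. Except at 1.5-fold, the shares over all genes under the other settings are not given here. The counts of rises and falls in this section therefore do not set the family apart from other genes. Without a filter on low values 54 clec genes rose in xol-1 sex-1 relative to xol-1, and the clec medians were 0.01 in xol-1 against WT and 0.06 in xol-1 sex-1 against WT. With a mean of at least 5 FPKM, 19 rose and 15 fell in xol-1 sex-1 relative to xol-1, with a median of 0.06. In xol-1 against WT 30 rose and 10 fell, with a median of 0.25. In xol-1 sex-1 against WT 28 rose and 18 fell, with a median of 0.26. That limit in place of 1 FPKM left 51 clec genes expressed in early embryos, 67 in xol-1 sex-1 at L3 and 57 in WT. At 1.5-fold, 23 rose and 8 fell in xol-1 sex-1 relative to xol-1, 18 rose and 7 fell in xol-1 against WT, and 11 fell in xol-1 sex-1 against WT. Columns rescaled to a common sum gave clec medians of 0.22 and 0.08 in the first 2 comparisons and a sum of 3828 FPKM in xol-1. Without members whose exons overlap another gene, 9 fell in xol-1 against WT. Leaving out near-identical proteins was not run.

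With single replicates left out, the number that fell in xol-1 sex-1 relative to xol-1 ranged from 14 to 25, highest without xol-1 replicate 2, and the number that rose in xol-1 against WT ranged from 24 to 39, lowest without xol-1 replicate 1 or 4. The cause was not tested. Sign changes touched named genes that were not called in the comparison. Leaving out a replicate gave ranges of -0.09 to 0.19 for clec-231 and -0.05 to 0.11 for clec-82 in xol-1 sex-1 relative to xol-1. In xol-1 against WT the ranges were -0.12 to 0.07 for clec-194, -0.02 to 0.19 for clec-178, -0.08 to 0.20 for clec-87, -0.13 to 0.04 for clec-86 and -0.55 to 0.31 for clec-199. For clec-80 in xol-1 sex-1 against WT the range was -0.05 to 0.06. A common sum gave -0.03, -0.01 and -0.03 for clec-178, clec-224 and clec-52 in xol-1 against WT, and -0.01 for clec-80 in xol-1 sex-1 against WT.

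Replicate numbers recur in the genotypes, but deviations of same-numbered samples correlated at -0.179 to 0.244. Only replicate 3 of xol-1 sex-1 with xol-1, at 0.153, and replicate 1 of xol-1 with WT, at 0.244, passed 0.1. The numbers were therefore not taken to pair samples. With the replicate number as a block, 35 rose and 14 fell in xol-1 sex-1 relative to xol-1, with a median of 0.12. There were 31 and 13 in xol-1 against WT, with 0.21, and 47 and 23 in xol-1 sex-1 against WT, with 0.34. The block ended the xol-1 against WT calls of clec-71, clec-227, clec-173 and clec-41, with adjusted p of 0.0674, 0.0512, 0.0648 and 0.0632, and no other call of a named gene. Depth limits genes near 1 FPKM, where few fragments stand behind a value, and 142 clec genes lay below the limit for testing.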

Other observations

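Calls by chromosome are given as a description, without a test. On chromosome II, 11 of 18 tested clec genes rose and 0 fell in xol-1 sex-1 relative to xol-1, where 23.7% of all genes tested on that chromosome rose and 25.2% fell. In xol-1 against WT, 8 rose and 4 fell there, against 16.5% and 15.5% of all its genes, and in xol-1 sex-1 against WT 12 rose and 3 fell, against 26.7% and 29.3%. On chromosome V, 9 of 38 rose and 9 fell in xol-1 sex-1 relative to xol-1 (23.7% each), close to the 24.0% and 26.6% of all its genes. In xol-1 against WT 14 rose and 6 fell on chromosome V, against 16% and 14.6% of all its genes, and in xol-1 sex-1 against WT 15 rose and 12 fell, against 27.1% and 28.7%. On chromosome IV, 10 of 26 rose and 3 fell, 10 rose and 4 fell, and 13 rose and 5 fell in the same 3 comparisons. Of all genes tested on it, 21.2%, 15.1% and 22.6% rose and 28.4%, 14.9% and 29.3% fell. The X chromosome has only 2 tested members.

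clec-50, among the most abundant members at L1 and L3, had 601, 686, 597 and 598 FPKM in xol-1 sex-1, 465, 542, 466 and 511 in xol-1, and 317, 350, 346 and 364 in WT. The genotypes did not overlap, and its log2 fold change was 0.32 (SE 0.07, adjusted p = 0.00277) in xol-1 sex-1 relative to xol-1 and 0.52 (SE 0.07, adjusted p = 0.000165) in xol-1 against WT. clec-84 rose by 0.47 in xol-1 sex-1 relative to xol-1 (SE 0.13, adjusted p = 0.0115), with a log2 fold change of -0.22 in xol-1 against WT (SE 0.13, adjusted p = 0.25).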
